A study of Mus musculus with 2 samples.

Results

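A set of 986 of the 19528 nuclear islands called from anti-TCF-1 ChIC-seq of mouse lymphoid tissue inducer (LTi) cells is described here, chosen by their read counts, many in the peak library and few in the control library (the members in the plots). An island is a stretch of the genome in which the peak caller joined read-rich windows. The islands chosen had at least 1 control read, at least 20 and under 200 peak reads and at least 6 times as many peak reads as control reads. They were 5.05% of the nuclear islands and 14.1% of the 7005 islands that had a control read and the same range of peak reads. The read counts of the 2 libraries chose these islands, so their reads, ratios and folds are given as descriptions without a test. Ratios are of unscaled reads. The deposited fold scales the control library by 1.997, so a ratio of 6 is a fold of 3.00.

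Both samples were C57BL/6 LTi cells, sorted as Lin-CD127+ KLRG1-NK1.1-NKp46-CCR6+. Of the 2 libraries, 1 came from Tcf7fl/fl-VavCre cells of the small intestine lamina propria and the other from Tcf7+/+ cells of the Peyer's patches. Per the labels' protocols, each used 500 cells fixed for 10 min in 1% formaldehyde, and the nuclease was active for 3 min at 37 °C. VavCre is active across blood cells, so it deletes floxed Tcf7 in haematopoietic cells generally and not in LTi cells alone. Genotype and tissue of origin differed together, and there was 1 library per group. The headers of the read columns name no sample, so each value is that of a peak or a control library, and neither is assigned to a genotype.

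LTi cells belong to the group 3 innate lymphoid cells. They express CD127, the interleukin-7 receptor, and start lymph nodes and Peyer's patches in the embryo by showing lymphotoxin and related ligands to stromal cells. TCF-1, the product of Tcf7, is an HMG-box factor of the TCF/LEF family that binds CTTTG-containing sites, recruits beta-catenin in Wnt signalling or TLE co-repressors without it, and acts early in the innate lymphoid lineage. In ChIC-seq an antibody carries micrococcal nuclease to its target on fixed chromatin, and the fragments released are sequenced. The nuclease prefers accessible DNA, such as that at active promoters.

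The label of the set, strong islands with few control reads, was checked against all islands. The chosen islands had a median of 25 peak reads (quartiles 22 and 31), against 28 (23 and 37) in the 6019 islands of the same read range with a ratio under 6 and 16 (12 and 24) in all nuclear islands. They were strong only by comparison with all islands. Their control reads set them apart, with a median of 3 (quartiles 2 and 4) against 10 (7 and 14) in the 6019 islands. Those 6019 islands, which hold a similar number of peak reads and differ in the ratio, are the comparison used throughout.

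Of the chosen islands, 312 covered at least part of a RefSeq promoter window, which reaches from 250 bases before to 50 bases after a transcription start of a protein-coding gene. The 241 islands that covered exactly 1 window were ordered by their ratio of peak to control reads, and the first 6 lay at Ackr3, Wdr19, Paxbp1, Gadd45g, Adm and Hoxa7. The windows of the first 3 are printed because these islands had the highest ratios of the 241. Sequences are from RefSeq, build GRCm38.p6 (mm10), written 5′ to 3′ on the strand of the gene.
Ackr3 (chr1:90203730-90204029, plus strand): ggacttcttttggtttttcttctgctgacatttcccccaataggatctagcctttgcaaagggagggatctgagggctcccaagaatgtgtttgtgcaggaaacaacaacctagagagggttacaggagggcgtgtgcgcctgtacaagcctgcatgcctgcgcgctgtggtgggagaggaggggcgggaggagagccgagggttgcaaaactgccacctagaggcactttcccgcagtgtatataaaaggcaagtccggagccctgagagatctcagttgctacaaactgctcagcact
Wdr19 (chr5:65199446-65199745, plus strand): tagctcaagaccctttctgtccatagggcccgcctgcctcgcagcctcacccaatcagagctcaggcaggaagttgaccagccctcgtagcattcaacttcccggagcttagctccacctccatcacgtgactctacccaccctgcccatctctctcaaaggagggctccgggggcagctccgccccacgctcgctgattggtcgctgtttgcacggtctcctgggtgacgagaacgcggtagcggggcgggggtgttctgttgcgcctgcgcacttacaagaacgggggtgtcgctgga
Paxbp1 (chr16:91044330-91044629, minus strand): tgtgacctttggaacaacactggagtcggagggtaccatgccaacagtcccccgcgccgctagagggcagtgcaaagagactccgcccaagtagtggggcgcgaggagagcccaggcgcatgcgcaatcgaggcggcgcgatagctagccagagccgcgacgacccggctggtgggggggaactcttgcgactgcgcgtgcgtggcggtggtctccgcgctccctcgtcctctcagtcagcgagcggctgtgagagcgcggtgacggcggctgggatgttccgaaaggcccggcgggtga
The Ackr3 island held 41 peak reads and 1 control read, the Wdr19 island 35 and 1, and the Paxbp1 island 33 and 1. Ackr3 encodes an atypical receptor that takes up the chemokine CXCL12, Wdr19 a transport protein of cilia, and Paxbp1 a protein that binds the PAX3 and PAX7 factors. None of the 6 windows held a match to the TCF/LEF motifs CTTTGAT and CTTTGAA, the RUNX motif AACCACA, the AP-1 motif TGANTCA or the ETS motif CGGAAG on either strand. No match says only that these letters were not in these windows.

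Matches to a TCF/LEF motif were in 29 of the 405 promoter windows that the chosen islands covered, 7.16% with an exact (Clopper-Pearson) 95% interval of 4.85 to 10.1%. The share was 5.81% (5.15 to 6.54%) of 4524 windows covered by the islands with a ratio under 6, and 7.57% of all 21263 windows. All intervals here cover counting error only. The interval of the chosen islands includes both other shares. Windows of 1 gene overlap, and 4 of the 29 windows were of Exoc1. The windows of 3 genes with the match CTTTGAT or its reverse complement ATCAAAG are printed, picked after their sequences were seen, with the TCF/LEF and ETS matches in capitals.
Taf1 (chrX:101532485-101532784, plus strand): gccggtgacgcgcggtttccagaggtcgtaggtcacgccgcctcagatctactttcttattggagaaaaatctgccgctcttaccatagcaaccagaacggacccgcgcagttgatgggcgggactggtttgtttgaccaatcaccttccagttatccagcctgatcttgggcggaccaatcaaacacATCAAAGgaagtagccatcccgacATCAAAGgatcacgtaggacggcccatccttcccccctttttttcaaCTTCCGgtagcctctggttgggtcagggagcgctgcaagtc
Osbpl11 (chr16:33184821-33185120, plus strand): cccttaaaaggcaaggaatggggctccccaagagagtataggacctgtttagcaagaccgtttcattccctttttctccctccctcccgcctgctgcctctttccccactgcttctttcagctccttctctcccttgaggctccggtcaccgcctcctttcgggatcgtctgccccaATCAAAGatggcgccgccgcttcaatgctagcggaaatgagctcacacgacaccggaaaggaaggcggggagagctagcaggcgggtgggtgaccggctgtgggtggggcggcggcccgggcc
Abraxas2 (chr7:132858975-132859274, plus strand): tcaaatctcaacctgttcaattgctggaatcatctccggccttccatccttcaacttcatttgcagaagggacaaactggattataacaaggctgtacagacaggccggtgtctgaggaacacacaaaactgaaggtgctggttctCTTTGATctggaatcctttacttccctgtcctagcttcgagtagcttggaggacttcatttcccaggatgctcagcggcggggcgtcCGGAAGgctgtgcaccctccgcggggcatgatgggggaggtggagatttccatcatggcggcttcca
The Taf1 window held ATCAAAG at bases 189 to 195 and again at bases 213 to 219, counted from 1 at the 5′ end of the window. It is the promoter of the largest subunit of the general factor TFIID, and its island held 21 peak reads and 2 control reads. The Osbpl11 match spanned bases 178 to 184 at the edge of an island with 21 and 1 reads. Abraxas2, a scaffold of the BRISC deubiquitinase, held its match at bases 147 to 153 in an island with 22 and 1 reads. A match is a run of letters and does not show binding.

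By other motifs and by composition the promoters of the chosen islands lay close to those of the islands with a ratio under 6. CGGAAG was in 35.8% (31.1 to 40.7%) of their windows and in 37.0% (35.5 to 38.4%) of the windows of the other islands, against 21.1% of all windows. AACCACA was in 4.44% against 3.27%, with 4.71% of all windows, and TGANTCA in 4.44% against 3.47%, with 6.99% of all windows. CTTTGAT and CTTTGAA can each share bases with TGANTCA, where the next letters are TCA. The median GC content was 62.0% for the chosen islands, 62.2% for the other islands and 56.3% for all windows. The ratio of observed to expected CpG had medians of 0.784, 0.824 and 0.567 in the same 3 sets.

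The reads behind each chosen island were few. In all, the 986 islands held 26866 peak reads and 3183 control reads over 2096 kb, a ratio of 8.44, and the 6019 islands with a ratio under 6 held 193968 and 71616. Of the chosen islands, 455 had 20 to 24 peak reads, 228 had 25 to 29, 232 had 30 to 39 and 71 had 40 or more. The largest count was 75, far under the upper limit. A single control read was found in 100 islands, 2 reads in 206, 3 in 315, 4 in 202, 5 in 92 and 6 to 11 in the rest. In 306 islands the ratio therefore rested on 1 or 2 control reads. The deposited FDR of every chosen island was at most 6.95e-06, and 20.7% of all nuclear islands had an FDR of 1e-05 or less.

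**Figure D1:**
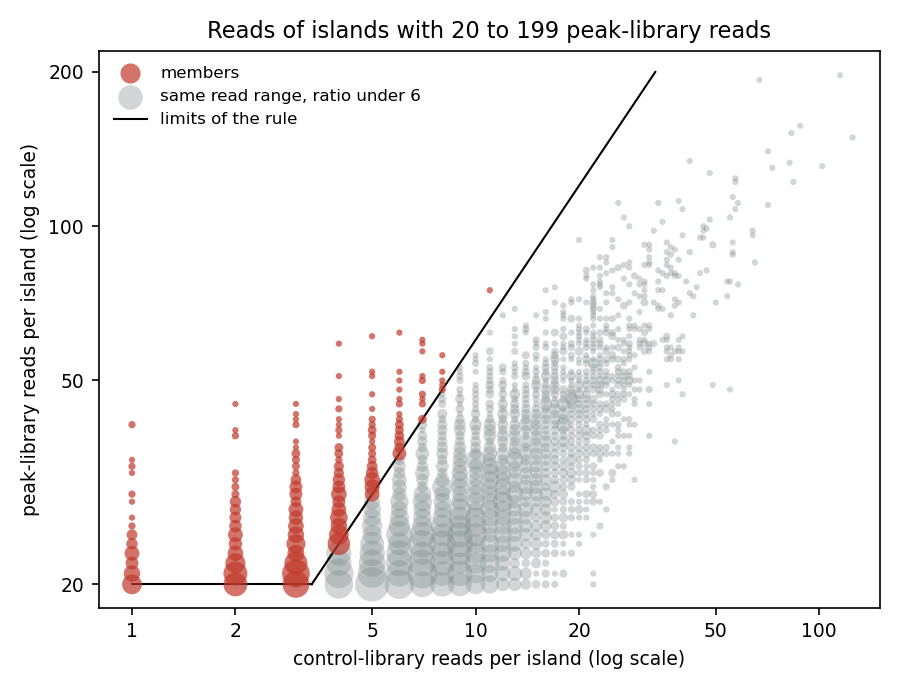
Peak-library reads (vertical, log scale) against control-library reads (horizontal, log scale) of nuclear islands with at least 20 and under 200 peak reads and a control read; the area of a point grows with the number of islands at that pair of counts. The 986 members (red) lie on or above the limits of the rule (black line) and sit mostly at 1 to 5 control reads, and the 6019 islands with a ratio under 6 (grey) continue below the line without a gap.

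The 10 islands with the highest ratios each had 1 control read. Those at Ackr3 (chr1:90202201-90205400) and inside Kit (chr5:75622601-75625200) came first with 41 peak reads each. The deposited fold, which scales the control library by 1.997, was 20.5 for both, with an exact conditional binomial 95% interval of 3.48 to 831. The width of that interval shows how little 1 control read fixes the fold. Kit encodes the receptor for stem cell factor and is a surface marker of LTi cells. Wdr19 had 35 peak reads, Camk2n1, an inhibitor of the kinase CaMKII, had 34, and Paxbp1 had 33. An island 12056 bp from Klf7, which encodes a Krüppel-like factor, also had 34. Tiam2, an activator of the GTPase Rac, and Zbtb10, a zinc finger gene, had 30 each. The last 2 of the 10 lay 67499 bp from Avpr1a, a vasopressin receptor gene, with 29 reads, and 72068 bp from Dock10, with 27.

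The islands with the most peak reads were also wide. First came chr13:31501801-31506800, with 75 peak reads and 11 control reads over 5000 bp, 51370 bp from the forkhead factor gene Foxq1. An island inside Plcb4, a phospholipase C gene, held 62 and 6 reads and was the widest at 5800 bp. The island at Mageb3 and Ctdspl2 held 61 and 5 reads. Another, 164859 bp from Ankrd50, held 60 and 7. An island inside Smad3, which encodes a transducer of TGF-beta signals, held 59 and 4 reads, a fold of 7.39 (2.74 to 28.0). These 5 had 4 to 11 control reads, and none of them was among the 10 highest ratios.

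Islands on both sides of the ratio limit had similar reads. At a ratio of exactly 6, which 71 islands had, the largest were in Tex14 (48 and 8 reads), in Runx2 (48 and 8), which encodes a RUNX factor, and in Il18r1 (42 and 7), the interleukin-18 receptor. Just under the limit, Kat6b, a histone acetyltransferase gene, had 53 and 9 reads, Inka1 had 47 and 8, and Dpf3 had 41 and 7. At the lower limit on reads, 123 chosen islands had exactly 20 peak reads, and 32.5% of them lay within 1 kb of the end of a protein-coding gene. A further 187 islands met the ratio with 19 reads, and 30.0% of those lay there. Of the 123, 53 had 3 control reads, a fold of 3.34 whose interval of 0.990 to 17.5 includes 1. The deposited FDR of those 53 was still at most 6.95e-06.

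Location was not used to choose the islands. Fewer of them lay at gene ends than of islands with as many peak reads. Within 1 kb of either end of a protein-coding gene lay 388 of 986, or 39.4% (36.3 to 42.5%), against 3896 of 6019, or 64.7% (63.5 to 65.9%). The intervals do not overlap. Over all nuclear islands the share was 42.1%. At a listed transcription start, within 1 kb, lay 330 of 958 chosen islands off chromosome 18, or 34.4% (31.4 to 37.6%), against 3455 of 5859, or 59.0% (57.7 to 60.2%). Regions are not replicates, and the interval covers only the count of islands in these 2 libraries.

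Instead, more of the chosen islands than of those with a ratio under 6 lay inside genes and far from them. Inside a protein-coding gene and over 1 kb from its ends lay 355, or 36.0% (33.0 to 39.1%), against 21.2% (20.1 to 22.2%) of the islands with a ratio under 6. Outside genes, 79 lay within 10 kb (8.01% against 5.28%) and 87 lay at 10 to 50 kb (8.82% against 5.58%). At more than 50 kb lay 77, or 7.81% (6.21 to 9.66%), against 3.24% (2.81 to 3.72%). The farthest of them was 451126 bp from Klf4. Over all nuclear islands these shares were, in the same order, 35.3%, 8.65%, 8.46% and 5.54%. Only the last, that at more than 50 kb, lay outside the interval of the chosen islands. In all, 822 of the 986 had a protein-coding gene within 10 kb, 83.4% (80.9 to 85.6%), against 91.2% (90.4 to 91.9%). Over all nuclear islands it was 86.0%. The 33 islands of the same read range with no control read, which the rule left out, went further the same way, with 7 of 33 at a gene end, 21.2% (8.98 to 38.9%).

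From a ratio of 2 to 3 on, the share at gene ends became smaller at every step of the ratio. It was 68.1% at a ratio under 2, 69.8% from 2 to 3, 63.5% from 3 to 4, 56.5% from 4 to 5 and 53.7% from 5 to 6. Among the chosen islands it was 46.8% (42.3 to 51.4%) from 6 to 8, 35.2% (30.0 to 40.7%) from 8 to 12 and 27.9% (21.7 to 34.9%) at 12 or more. The limit of 6 therefore cuts through a gradual change. The share more than 50 kb from a gene was 2.81% at the lowest step and 11.1% at the highest. Over the 8 steps the median of the control reads ran from 17 to 1 and that of the peak reads from 28 to 25, so the steps differ mainly in control reads.

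**Figure D2:**
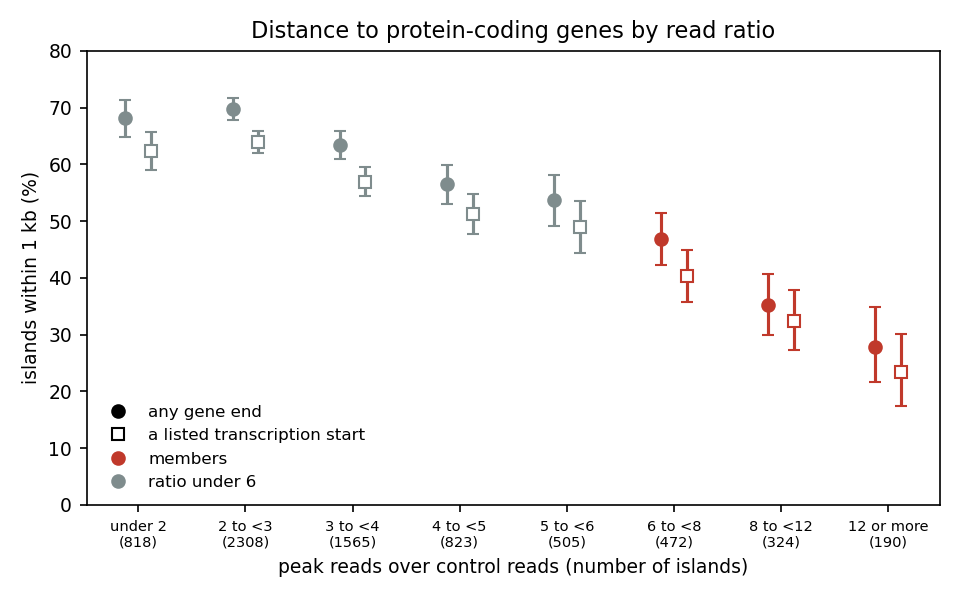
Share of islands (%) within 1 kb of any end of a protein-coding gene (filled circles) or of a listed transcription start (open squares), by the ratio of peak to control reads, for islands with at least 20 and under 200 peak reads and a control read; bars are exact 95% intervals and the number of islands stands under each step. The 3 steps of members (red) lie at 46.8%, 35.2% and 27.9% for gene ends, and the 5 steps under a ratio of 6 (grey) between 53.7% and 69.8%.

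The difference in location was present at every level of peak reads. At gene ends lay 34.1% of chosen islands against 57.1% of the others at 20 to 24 peak reads, 43.9% against 63.8% at 25 to 29, and 47.0% against 69.8% at 30 to 39. At 40 or more reads the shares were 33.8% (23.0 to 46.0%) of 71 chosen islands against 72.1% (69.5 to 74.6%) of 1224. None of these 4 pairs of intervals overlapped.

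In width the chosen islands were close to others with as many reads. Their median was 2000 bp (quartiles 1600 and 2600, range 600 to 5800), against 2200 bp (1800 and 3000, range 200 to 12000) for the islands with a ratio under 6 and 1400 bp for all nuclear islands. Widths come in steps of 200 bp. Within levels of peak reads the medians were 1800 bp in both sets at 20 to 24 reads, 2000 against 2200 bp at 25 to 29, 2400 bp in both at 30 to 39, and 3200 against 3400 bp at 40 or more. Peak reads per kb had medians of 12.8 and 13.0, and control reads per kb had medians of 1.54 and 4.55. The width thus differed by at most 1 step at equal reads.

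**Figure D3:**
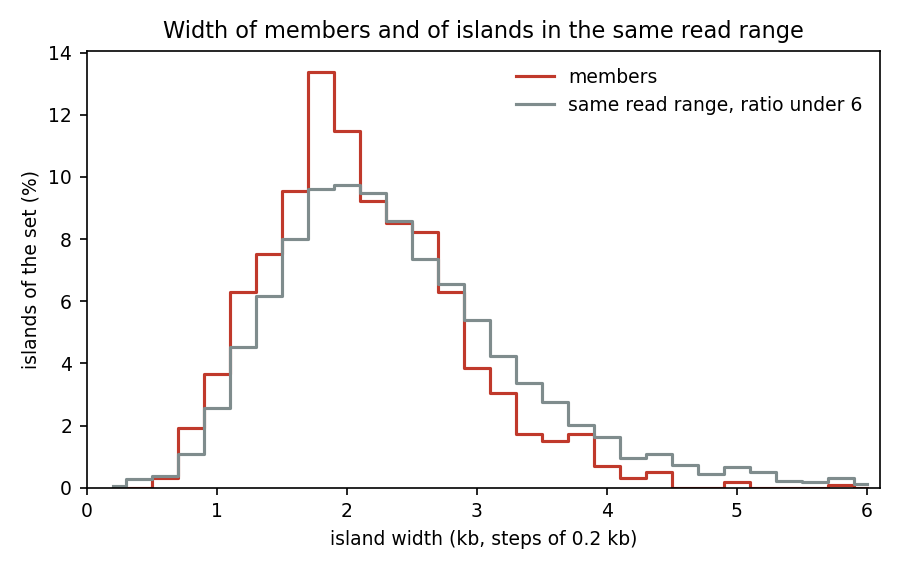
Distribution of island width (kb, in steps of 0.2 kb) as a share of each set (%), for the 986 members (red) and the 6019 islands in the same range of peak reads with a ratio under 6 (grey). The members peak at 1.8 kb, and a smaller share of them than of the other islands is wider than 3 kb.

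The chosen islands were spread over every chromosome except Y, which had 4 islands in all. They made up 7.50% (6.14 to 9.04%) of the islands on chromosome 1, 100 of 1334, and 7.41% (5.47 to 9.76%) on chromosome 16, 46 of 621. On chromosome 2 the share was 5.88%, on the other autosomes 4.22 to 5.17%, and on chromosome X 2.36% (0.872 to 5.07%), 6 of 254. Against islands of the same read range, chromosomes 1 and 16 stood at 20.7% and 21.6% and chromosome X at 12.2% (4.63 to 24.8%), within the 11.2 to 16.8% of the other autosomes.

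Most of them stood alone. The median gap to the next chosen island was 375 kb, and 53 of them (5.38%) had another chosen island within 10 kb. Another island of any kind lay within 10 kb of 509, or 51.6% (48.5 to 54.8%), against 55.2% (53.9 to 56.5%) of the islands with a ratio under 6. The 599 islands within 10 kb of a chosen one that were not chosen themselves held 11235 peak reads and 3267 control reads, a ratio of 3.44. The ratio was 2.92 in the islands next to those with a ratio under 6, and 3.09 in all unchosen islands under 200 peak reads. The neighbours of chosen islands thus had a ratio slightly above that of both other sets. The 8.44 of the chosen islands is no comparison for them. The rule chose for a high ratio, and neighbours that met it were not counted.

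Where islands were joined across gaps of up to 50 kb, 837 stood singly, 56 stretches held 2, 11 held 3 and 1 held 4. The stretch of 4, chr13:34651601-34775800 near Pxdc1 and Fam50b, held 109 peak reads and 10 control reads over 124 kb. Of the stretches of 3, that in Rora held 109 and 8 reads over 24.4 kb. That at Arl3 and Wbp1l held 102 and 11 over 93.0 kb, and that at Il1r1 held 93 and 8 over 77.2 kb. The shortest, near Irf2bp2, held 69 and 6 reads over 16.4 kb.

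Within 10 kb of a chosen island lay 1042 of 21887 protein-coding genes, or 4.76%, and 8.7% of the 11973 genes with any island under 200 peak reads in that window. Long genes had more of them. With genes split into 3 equal groups by length, 2.64% of the shortest, 4.74% of the middle and 6.89% of the longest group had a chosen island. By islands, 164 had no such gene within 10 kb, 596 had 1, 179 had 2, 35 had 3, 11 had 4 and 1 had 7. The island with 7, chr7:30558801-30560400 with 27 and 4 reads, lay among Kmt2b, a histone methyltransferase gene, Psenen, a gamma-secretase subunit gene, and 5 other genes. Where 1 island has several genes, each is counted.

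Genes of LTi cells and their group 3 relatives had the highest share of genes with a chosen island among the 16 lists. Of 27 identity genes, 10 had a chosen island within 10 kb, 37.0% (19.4 to 57.6%), against 4.76% of all protein-coding genes. These genes are long and rich in islands: 15 of the 27 are in the longest of the 3 groups, 8 of those 15 had a chosen island, and all 27 had some island. Counted by pairs of an island and a gene, 16 of 157 pairs (10.2%) were with a chosen island, against 1110 of 24877 (4.46%) for all genes. By pairs the list did not stand first: the share was 1 of 8 (12.5%) for myeloid markers and 1 of 3 (33.3%) for liver, neuron and muscle markers. Just under the 10.2% came 1 of 10 (10.0%) for ILC2 markers and 6 of 61 (9.84%) for AP-1 and immediate early genes. The lists were put together with results of these data known, so the counts are descriptions.

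Among transcription factors of this list, Rora, a nuclear receptor of group 2 and group 3 innate lymphoid cells, had 3 chosen islands of 15. They lay at chr9:69318201-69321600 with 42 peak and 3 control reads, at chr9:69322401-69325000 with 29 and 2, and at chr9:69339801-69342600 with 38 and 3. All were inside the gene, 666 to 688 kb from its start. Tcf7 itself had 2 chosen islands of 9, at its start (chr11:52282801-52284600) with 33 and 4 reads and inside it (chr11:52275401-52277400) with 21 and 2. The stretch of Tcf7 that Cre removes is not given in the sources used here. Batf3, an AP-1 family factor, had 37 and 6 reads at its start (chr1:191096001-191099200) and 31 and 2 inside (chr1:191100201-191103400). Tox, an HMG-box factor needed for innate lymphoid progenitors, had 26 and 2 (chr4:6869001-6870800). Maf had 21 and 3 (chr8:115704201-115706000), and Ikzf3, the gene of Aiolos, had 22 and 2 (chr11:98468601-98470800).

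Among receptors of the list, Kit had the island of 41 and 1 reads described above. Its 6 other islands held 12 to 18 peak reads and 0 to 3 control reads, too few peak reads for the rule. Il1r1, the interleukin-1 receptor, had 2 chosen islands of 16, both with 24 and 3 reads (chr1:40242601-40244400 and chr1:40283801-40285400). Il23r, the receptor of interleukin-23, had 20 and 2 reads (chr6:67463801-67466000). Notch1 had 27 and 4 reads at its start (chr2:26503201-26504800) and 24 and 4 inside it (chr2:26493001-26495800). The other 17 genes of the list had none. Il7r, which encodes CD127, had 5 islands of ratio 2.28 to 5.33, the largest with 85 and 32 reads at its start. Id2, the inhibitor of E proteins on which innate lymphoid cells depend, had 2 islands with 91 and 25 reads and with 22 and 6.

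In the Wnt pathway, 4 of 27 genes had a chosen island, 14.8% (4.19 to 33.7%). Besides Tcf7 these were Axin2, a feedback target of beta-catenin, with 27 and 3 reads at its start (chr11:108920201-108921400), Znrf3, which removes Wnt receptors, with 21 and 2 (chr11:5296801-5297800), and Tle3, a co-repressor of TCF factors, with 27 and 3 (chr9:61377001-61379400). Lef1, the closest relative of Tcf7 in lymphocytes, had none. Of its 6 islands, that at chr3:131105201-131106400 had 19 and 2 reads, 1 peak read under the limit. The interval of this list includes the 4.76% of all genes, and 19 of its 27 genes are in the longest group.

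Of 29 cytokine receptor and JAK-STAT genes, 7 had a chosen island, 24.1% (10.3 to 43.5%). All 29 genes had an island. The share was 4.76% of all protein-coding genes and 8.7% of those with an island. This list too was put together with results known, so its interval is a description. All 7 were among the list's 18 long genes, 38.9% of them, against 6.89% of the longest group over all genes. By pairs of an island and a gene, 10 of 144 (6.94%) were with a chosen island, against 4.46% for all genes. Il18r1 had 32 and 5 reads at its start (chr1:40465201-40468200) and the island of 42 and 7 at the limit of the ratio. The island at its start also overlaps Il1rl1, the interleukin-33 receptor gene, so the count of Il1rl1 rests on it. Stat5b, a STAT factor downstream of CD127, had 26 and 3 reads (chr11:100804601-100807400) and 31 and 5 (chr11:100818601-100820600). Il2rb had 25 and 4 reads (chr15:78509201-78511600). Tgfbr2, a TGF-beta receptor gene, had 20 and 3 (chr9:116168201-116169600), a fold of 3.34 whose interval of 0.990 to 17.5 includes 1. Il1r1 and Il23r are in this list too. None of the JAK genes had a chosen island.

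Of 21 AP-1 and immediate early genes, 5 had a chosen island, 23.8% (8.22 to 47.2%), against 4.76% of all genes. They were Batf3 and Maf, already described, Fosl1 with 26 and 4 reads (chr19:5447201-5449000), Nr4a2, an orphan receptor gene induced by stimulation, with 27 and 4 (chr2:57115401-57118000), and Bach2, a repressor of AP-1 sites, with 30 and 5 (chr4:32237801-32240800). By contrast, none of the 25 NF-kB genes had one, a share of 0 with an upper limit of 13.7%, although 24 of them had an island and 72 island-gene pairs were counted. NF-kB carries the signals of the lymphotoxin and RANK receptors. Its upper limit lies above the 4.76% of all genes, so a lower share is not shown.

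The lists of effector, migration, T cell and survival genes had shares nearer to that of all genes. Of 15 effector genes only Tnfsf14, the gene of LIGHT, had a chosen island, with 25 and 4 reads, 6.67% (0.169 to 31.9%). Of 20 migration genes Cxcr4, the CXCL12 receptor, had 22 and 3 reads at 4199 bp, and Cd44, an adhesion receptor, had 57 and 7, 10.0% of the list. Of 22 T cell genes Zap70 had 36 and 4 reads, Bcl6 had 33 and 5, and Foxp1 had 26 and 3 and 21 and 2 in 2 islands, 13.6%. Of 16 survival and cell cycle genes Bcl2, which blocks apoptosis, had 20 and 1, and Ccnd3, a cyclin gene, had 23 and 2 and 22 and 3, 12.5%. All 4 intervals include 4.76%.

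Markers of other cells that a sort could hold were checked the same way. A chosen island was found for 1 of 14 NK cell and ILC1 markers (Itga1), 1 of 11 ILC2 markers (Il1rl1, by the shared island), 2 of 12 B cell markers (Blk and Fcer2a), 1 of 12 myeloid markers (Spi1) and 0 of 12 epithelial markers. It was also found for 1 of 14 liver, neuron and muscle markers (Ckm) and 2 of 12 housekeeping genes (Actb at 7315 bp and Rpl13a at 5856 bp). The shares were 0 to 16.7% with intervals that include 4.76%. An island near a gene does not measure its expression, so these counts do not give the purity of the sort.

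**Figure D4:**
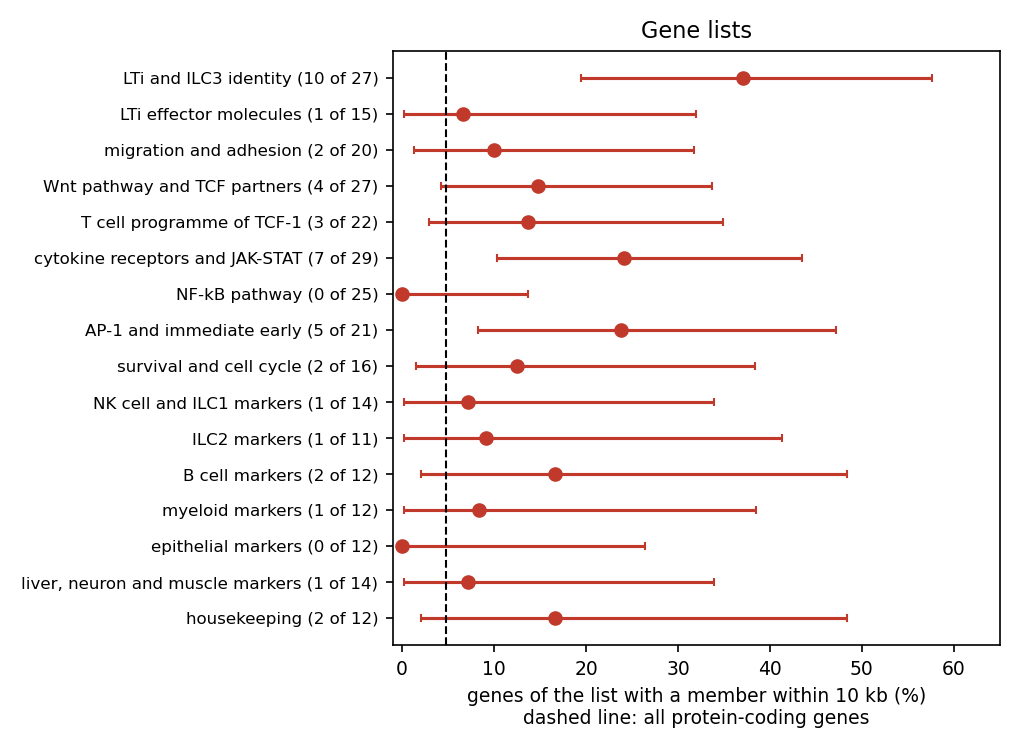
Share of genes (%) with a member within 10 kb for each of 16 gene lists, with the count in brackets; bars are exact 95% intervals and the dashed line is the 4.76% of all protein-coding genes. The LTi and ILC3 identity list stands at 37.0% and the NF-kB and epithelial lists at 0.

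At least 2 chosen islands within 10 kb were found for 59 genes (0.27% of protein-coding genes), 52 with 2, 5 with 3 and 2 with 4. Most of the leading ones are long. Mgat5, which adds branches to N-glycans of surface receptors, had 4 of its 13 islands among the chosen, with 114 peak and 16 control reads in all. The 4 had 32 and 5, 23 and 3, 23 and 3, and 36 and 5 reads and lay 1.28, 28.2, 101 and 111 kb from the start of the 283416 bp gene. Sgms1, a sphingomyelin synthase gene, had 4 of 22, with 99 and 11 reads in all, at 96.9 to 192 kb from its start. The fold of 1 of them, with 20 and 3 reads, had an interval that includes 1 (0.990 to 17.5). Rora followed with the 3 described. Its chosen islands lay in the last part of the gene, where most of its other islands also lay.

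**Figure D5:**
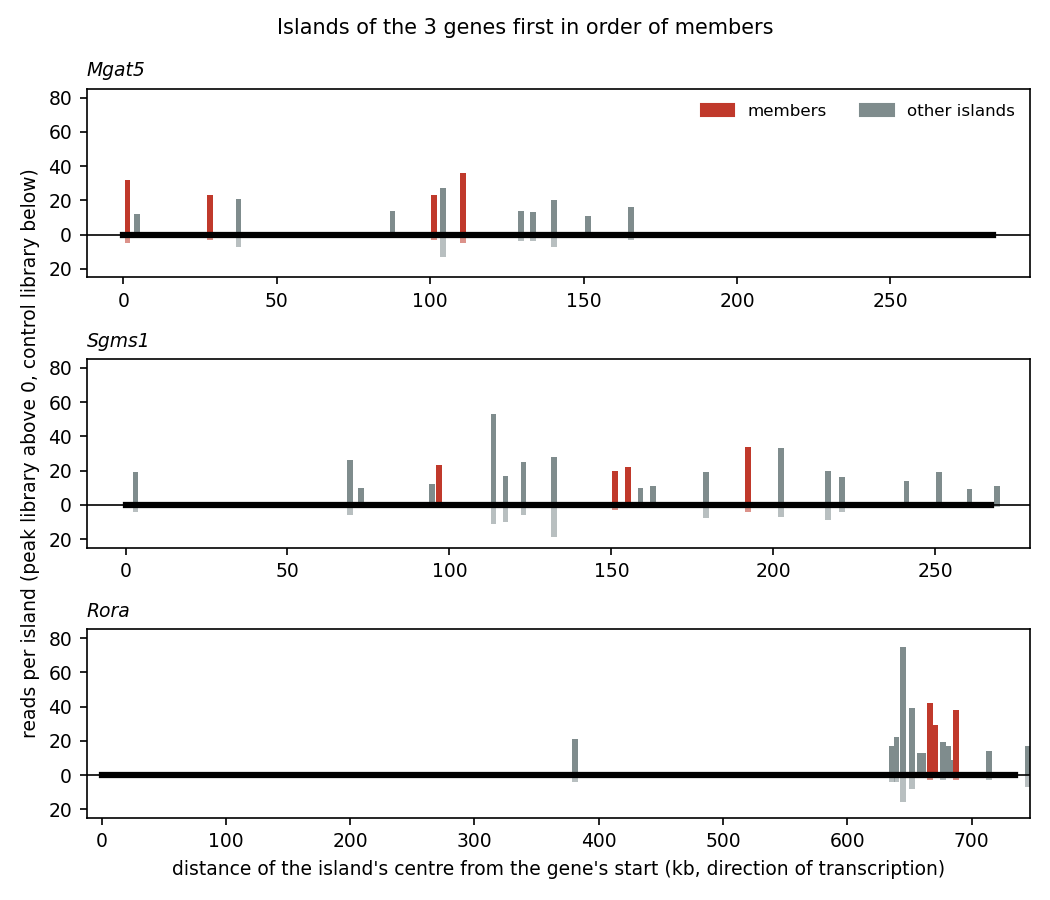
Peak-library reads (above 0) and control-library reads (below 0) of every island of Mgat5, Sgms1 and Rora, against the distance of the island's centre from the gene's start (kb, in the direction of transcription); the black bar is the gene, red bars are members and grey bars are other islands, drawn at 1 display width. The members of Mgat5 lie at 1.28 to 111 kb, those of Sgms1 at 96.9 to 192 kb and those of Rora at 666, 670 and 688 kb.

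The next 4 genes had 3 chosen islands. Pde7b, a cAMP phosphodiesterase gene, had 89 and 9 reads in them, among them 1 island at a start inside the gene with 22 and 1. Lpp, an adhesion protein gene, had 77 and 10, Dym, a Golgi protein gene, had 73 and 7, and Ppm1h, a phosphatase gene, had 67 and 5. Of the genes with 2, the first by peak reads were Cfap45 (82 and 13), Lmna, the lamin A/C gene (82 and 12), Utrn (76 and 9), Il18r1 (74 and 12), Crem, a cAMP-responsive regulator (73 and 12), Prex1 (72 and 9), Mlec (69 and 9) and Batf3 (68 and 8). Both islands of Lmna lay upstream of the gene, at 2469 and 9069 bp. The other islands of Mgat5 held 148 and 42 reads in sum, those of Rora 276 and 51 and those of Lmna 108 and 26.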

How the data were processed

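The measurement was ChIC-seq with an anti-TCF-1 antibody in 2 samples of sorted mouse LTi cells, 1 per genotype. Alignment to mm10 used Bowtie2 2.4.2 and island calling used SICER 2.0, per the submitters' processing notes. Which settings the caller had and whether duplicates were kept is not given in the sources used here. Both read counts of an island, that of the peak and that of the control library, were deposited by the authors unscaled, under headers that name no sample. The deposited fold is a ratio of peak reads to scaled control reads, with a factor of 1.997 in every island with a control read, as recomputed here. The FDR, a p-value of the caller adjusted by the authors' tool and deposited with each island, is used only as a description. Library totals are not in the table, so depth is known only as reads per island and by the scaling factor of 1.997.

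Of 19531 islands, 3 mitochondrial ones were left out. Starts and ends are counted from 1. Protein-coding genes (21887) came from a RefSeq table of GRCm38.p6, the mm10 build, without strand or exons, so exons and introns were not told apart. Transcription starts and strand came from RefSeq promoter windows of 17492 of these genes, none on chromosome 18, where 28 chosen islands and 561 islands in all were left out of shares at starts. A genome sequence was not used here. Gene windows count islands under 200 peak reads. The TCF/LEF, RUNX, AP-1 and ETS motifs were searched on both strands.

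Shares have exact Clopper-Pearson 95% intervals, and folds exact conditional binomial ones, computed in Python 3.11.15 with numpy 2.4.6, pandas 2.3.3 and scipy 1.17.1. They cover counting error only, and reads need not be independent molecules. The assignment of islands to genes and the intervals were tested on simulated data. Conditions were not tested against each other, with 1 library each. Islands were named for the 10 highest ratios, the 5 largest peak read counts, the 3 largest widths and the 3 nearest to the ratio limit on either side. Genes were named for the 15 with most chosen islands, for every listed gene with 1, and in every case for Tcf7, Lef1, Kit, Il1r1, Rora, Il7r and Id2. Promoters were named for the 6 highest ratios among islands over 1 window. The chosen islands and the gene lists were picked with earlier results of these data known.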

Additional observations from a re-analysis of the deposited data

How the results depend on the processing

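Under other settings 29 of the main values stayed within counting error (counts within 1.5 times) and 25 moved. With a ratio of at least 5 there were 1491 islands and 1629 genes, with 44.2% at gene ends. With a ratio of at least 8 there were 514 and 522, with 32.5% at gene ends and 79.8% within 10 kb of a gene. From 15 peak reads there were 1953 islands and 1888 genes, a median width of 1800 bp and 34.3% at gene ends. From 30 reads there were 303 and 335, 2600 bp and 43.9%. A deposited fold of at least 4 gave the same 514 islands as a ratio of at least 8, because the fold is the ratio divided by 1.997. The share at gene ends was 45.0% with all RefSeq genes, 42.7% with a window of 2 kb and 33.0% where at least 50% of the island had to lie inside the window. For the islands with a ratio under 6 those 3 shares were 71.2%, 68.0% and 52.2%, above the chosen islands each time. The share within reach of a gene was 92.9% with all RefSeq genes, 79.3% at 5 kb and 92.2% at 50 kb, the last with 2197 genes, and 35.9% had another island within 5 kb. The share at starts was 38.3% of 785 islands whose genes all have a listed start, a setting chosen after seeing the data, against 66.6% of 4641. Requiring 2 control reads and leaving out chromosome X moved none of the main values. Requiring an FDR of 1e-05 or less could move none, because every chosen island already met it. Its values among the 29 were therefore fixed in advance. With 2 control reads, though, the survival and cell cycle list had 1 gene in place of 2, Bcl2 having 1 control read. The identity list then had 9 genes in place of 10, the chosen island of Kit also having 1 control read. The identity list had 4 to 12 genes with a chosen island over the settings, the fewest from 30 peak reads, where 1.53% of all genes had one. The NF-kB list had 0 to 4. The Wnt list had 1 to 10, the most from 15 peak reads, where 8.63% of all genes had one. The migration list had 1 to 7, the most at a ratio of at least 5 (7.44% of all genes). The effector list had 0 to 5, the most with a window of 50 kb (10.0% of all genes). The cytokine receptor and JAK-STAT list had 3 to 10 and the AP-1 list 1 to 6. The cause was not tested.

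With 1 control read in 100 chosen islands and 1 or 2 in 306, counting error alone moves islands across the ratio limit, and no replicate shows how many would return. No paired analysis was possible because the columns carry no replicate number and each group has 1 library.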

Other observations

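Beyond protein-coding genes, 916 of the 986 chosen islands had a RefSeq gene of any kind within 10 kb. Of the 164 islands with no protein-coding gene in that window, 94 had another RefSeq gene there and 70 had none. Long non-coding RNA genes numbered 306 of 12727, and 8.58% of those with an island under 200 peak reads, close to the 8.7% of protein-coding genes. Transfer RNA genes numbered 32 of 408, 7.84%, and 12.7% of the 251 with an island, but the 32 were counted at 14 chosen islands, since such genes lie in clusters. Pseudogenes numbered 70 of 9944, 0.704%, and 6.08% of the 1152 with an island.

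Within 10 kb of 23 chosen islands lay 28 microRNA genes, 2.28% of 1228 and 6.60% of the 424 with an island. RefSeq gave mature sequences for 26 of them, none for Mir449b and for Mir301b only mmu-miR-301b-5p. Seeds of products without a sequence were not compared. The only seeds (bases 2 to 8, in capitals) found in more than 1 of the given mature sequences were AGCACCA and GGCAGUG. The 4 sequences that carry them are printed to show the shared letters.
mmu-miR-29a-3p: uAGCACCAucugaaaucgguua
mmu-miR-29b-3p: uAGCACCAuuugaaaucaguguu
mmu-miR-449a-5p: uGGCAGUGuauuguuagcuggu
mmu-miR-449c-5p: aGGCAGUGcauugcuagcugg
Mir29a and Mir29b-1, whose products repress collagen genes and, in mouse lymphocytes, the interferon gene Ifng, lay 2660 and 3023 bp from an island on chromosome 6 with 21 peak reads and 2 control reads, 99611 bp from the nearest protein-coding gene, Klf14. The Mir449 genes lie inside Cdc20b, where an island with 20 and 2 reads overlapped Mir449c and ended 1134 bp from Mir449a. Mir423 (27 and 4 reads) and Mir8101 (31 and 5) were also overlapped by a chosen island. Mir141 and Mir200c lay 5216 and 4811 bp from an island in Ptpn6 with 21 and 3 reads, and Mir130b and Mir301b 6659 and 6305 bp from 1 at Sdf2l1 with 29 and 2. The genes of a pair share their island, so the 28 genes are not independent counts.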
